A study of Homo sapiens with 16 samples.

Results

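The report covers 42 genes that carry out mitosis and cytokinesis: 12 kinases and cyclins, 4 genes of anaphase onset, 6 centromere and kinetochore genes, 3 partners of the chromosomal passenger complex, 7 spindle, midzone and cytokinesis genes, DNA topoisomerase TOP2A and 9 kinesins. The kinesin CENPE is counted among the kinetochore genes. The 42 genes were chosen by gene name, with earlier results of these data known. All were found among 26156 nuclear genes with a level above 0 in at least 1 library. All 42 passed the filter on low levels (at least 1 TPM, a level per transcript length scaled to a fixed total, in at least 2 libraries) and were among the 15958 genes tested.

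The series profiled polyadenylated RNA of A549, a human lung adenocarcinoma cell line, by RNA sequencing. Cells of every group, DMSO controls included, overexpressed a fusion of the exosome protein CD63 to Nluc, so no group lacked that transgene. The groups were 5G6, 6D7, 7F8 and the solvent DMSO, each for 4 h and for 48 h, with 2 libraries in each of 8 groups and 16 libraries in all; the labels print 4 µM for each of them, DMSO included. The title of the series places the work in the control of exosome release by AMPK and SREBPs, and 5G6, 6D7 and 7F8 are known here by code name only.

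Entry into mitosis is driven by CDK1 bound to cyclin B, and the Aurora, Polo-like and checkpoint kinases then act on centrosomes, kinetochores and the spindle. Kinetochores join centromeres to microtubules, kinesins move or dismantle microtubules, and the anaphase-promoting complex (APC/C) with CDC20 targets securin and cyclin B for destruction so that chromatids separate. The mRNAs of most of these proteins are made mainly in G2 and mitosis, from promoters with a CCAAT box, bound by NF-Y, and a cell cycle genes homology region (CHR), bound by the MuvB complex with the factors B-MYB and FOXM1. In proliferating cell lines their summed mRNA is widely used as a measure of cycling cells.

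Promoters are shown because the genes were chosen by what their proteins do and not by their sequence. RefSeq sequences (GRCh38.p14, 250 bases before to 50 after the gene start) were matched by symbol for 36 of the 42 genes. AURKA, BIRC5, PKMYT1, TPX2, TTK and UBE2C are named only. The 4 printed here belong to a kinase, a cyclin, the APC/C activator and the kinesin that was called with all 3 compounds at 48 h, and all lie on the plus strand. Capitals mark each CHR (TTTGAA or TTCGAA) and each CCAAT box (CCAAT), searched on both strands, so that a match on the other strand reads TTCAAA or ATTGG.
PLK1, chr16:23678639-23678938: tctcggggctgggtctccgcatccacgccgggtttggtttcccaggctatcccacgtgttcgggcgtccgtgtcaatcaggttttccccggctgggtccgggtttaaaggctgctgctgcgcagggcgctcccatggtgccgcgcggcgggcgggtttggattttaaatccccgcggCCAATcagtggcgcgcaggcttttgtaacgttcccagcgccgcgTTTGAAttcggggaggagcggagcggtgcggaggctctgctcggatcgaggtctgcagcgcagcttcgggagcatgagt
CCNB2, chr15:59104896-59105195: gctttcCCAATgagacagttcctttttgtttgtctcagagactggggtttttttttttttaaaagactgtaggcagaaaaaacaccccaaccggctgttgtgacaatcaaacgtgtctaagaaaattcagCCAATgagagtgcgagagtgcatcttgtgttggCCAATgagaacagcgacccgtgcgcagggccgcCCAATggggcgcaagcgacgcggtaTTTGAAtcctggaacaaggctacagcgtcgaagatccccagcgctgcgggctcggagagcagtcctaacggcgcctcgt
CDC20, chr1:43358731-43359030: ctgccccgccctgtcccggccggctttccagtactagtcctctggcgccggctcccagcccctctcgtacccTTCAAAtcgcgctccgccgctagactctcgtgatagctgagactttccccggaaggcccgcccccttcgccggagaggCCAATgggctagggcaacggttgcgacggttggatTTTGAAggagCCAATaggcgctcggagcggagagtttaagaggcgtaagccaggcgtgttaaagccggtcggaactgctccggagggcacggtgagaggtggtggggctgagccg
KIF22, chr16:29790501-29790800: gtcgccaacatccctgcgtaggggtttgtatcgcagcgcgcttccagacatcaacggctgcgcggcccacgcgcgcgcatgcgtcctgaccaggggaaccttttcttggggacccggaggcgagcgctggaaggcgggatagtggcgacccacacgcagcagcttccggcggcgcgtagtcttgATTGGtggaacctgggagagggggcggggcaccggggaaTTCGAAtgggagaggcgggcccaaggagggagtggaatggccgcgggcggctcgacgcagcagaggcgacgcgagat

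A CHR was found in 28 of the 36 promoters (77.8%), against 3 of 39 DNA replication promoters (7.69%) and 16.4% of 34796 promoters of the same length. CCAAT boxes were in 29 of the 36 (80.6%), against 53.8% of DNA replication promoters and 34.6% of all. Both motifs stood together in 23 of the 36 (63.9%), against 5.13% of DNA replication promoters and 6.4% of all. An E2F-type match (TTTCCCGC, TTTCGCGC, TTTGCCGC or TTTGGCGC, both strands) was in 4 of the 36 (11.1%), against 19 of 39 DNA replication promoters (48.7%) and 3.3% of all. No motif contains another. The CHR lay within 60 bases of the start in 25 promoters and a CCAAT box within 120 bases upstream in 26. These are matches of letters, not measured binding, and the RefSeq starts lay up to 518 bases from the 5′ ends in the deposited files. Only TTTGAA and TTCGAA were searched as a CHR, so a gene without a match may still hold another form of it. At 48 h the median log2 fold change over the 28 genes with a CHR match and the 8 without a match was -1.56 and -1.56 with 5G6. It was -2.33 and -2.71 with 6D7, and -2.67 and -2.93 with 7F8.

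**Figure D1:**
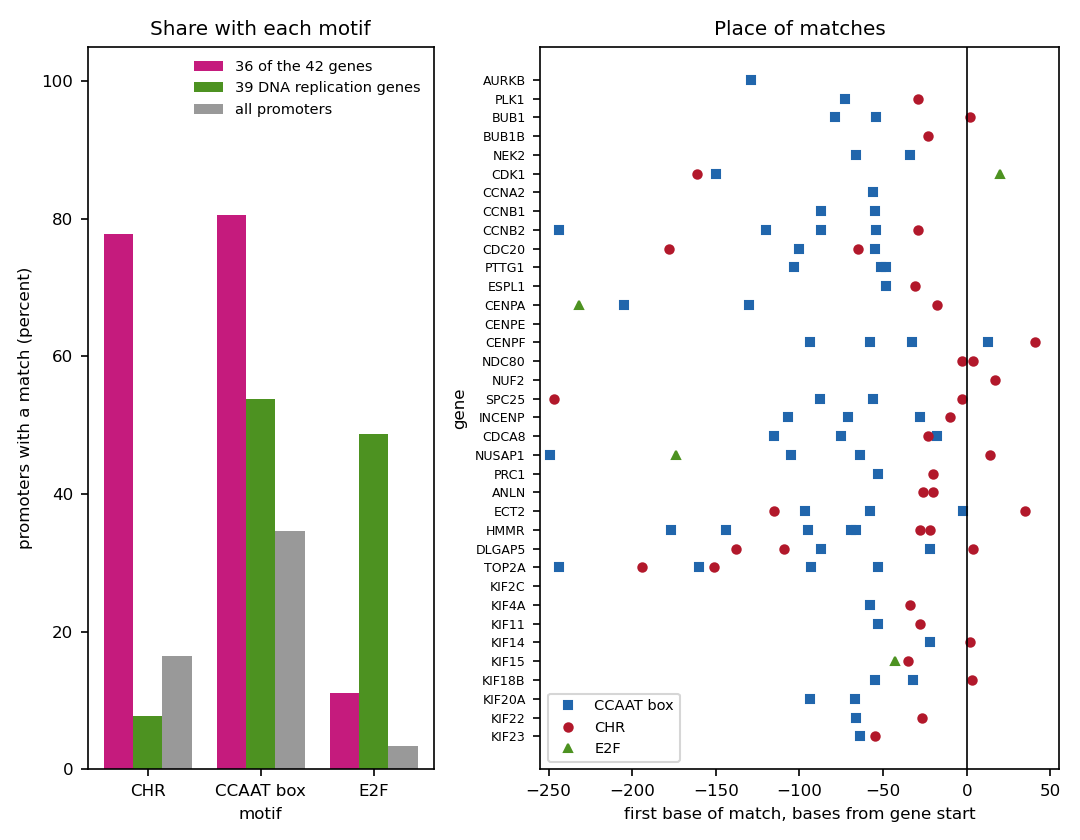
Left, the percent of promoters with each motif for 36 of the 42 mitotic genes, 39 DNA replication genes and all promoters. Right, the first base of each match relative to the gene start (0) for each of the 36 genes; CHR matches of 25 genes stand within 60 bases of the start.

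The libraries held 6.10 to 8.86 aligned gigabases, estimated from coverage over FPKM, and 13378 to 14909 genes at 1 TPM or more. Mitochondrial transcripts took 6.13% to 6.48% of the deposited TPM in the 2 libraries of 6D7 at 48 h and 18.9% to 32.5% in the other libraries, so TPM was rescaled without them. That gap is 1 gene, a mitochondrial tRNA (TRNC), listed at 0 in both 6D7 libraries of 48 h and at 15.3% to 28.6% elsewhere. In the other libraries the remaining mitochondrial transcripts took 3.47% to 5.08% of a total that still held TRNC. That total differs from the one in the 6D7 libraries of 48 h, so these shares and theirs cannot be compared directly. The 12 A549 and epithelial markers were abundant throughout but lower at 48 h, summing to 18770 and 21681 TPM with 5G6, 10045 and 22627 TPM with 6D7 and 13683 and 15094 TPM with 7F8, against 26056 and 28717 TPM with DMSO. KRT18, EPCAM and AKR1B10 were called lower with 7F8 and ALDH1A1 with 6D7, and KRT19 was called higher with 5G6 and 6D7. Fibroblast markers summed to 2.89 to 20.9 TPM, nearly all of it COL1A1 (2.79 to 20.8 TPM), and reached 14.7 TPM or more in 6 of the 8 replicate 1 libraries, against at most 5.93 TPM in the replicate 2 libraries. The other 5 fibroblast genes were at most 0.233 TPM each, with COL1A2 and DCN at 0 in every library. The 5 leukocyte genes summed to at most 12.4 TPM (CD14 at most 11.3 TPM), with PTPRC at most 0.0967 TPM, and the 4 endothelial genes to at most 0.702 TPM. The part of these markers in the results below was not tested.

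At 48 h the mitotic genes were far lower with every compound than with DMSO. Their summed level was 836 and 1666 TPM in the 5G6 libraries, 304 and 1252 TPM in the 6D7 libraries and 271 and 860 TPM in the 7F8 libraries, against 3524 and 3679 TPM in the DMSO libraries. Relative to the DMSO mean this was 23.2% and 46.3% with 5G6, 8.44% and 34.8% with 6D7, and 7.51% and 23.9% with 7F8. In each of these 6 compound libraries all 42 genes lay below both DMSO libraries. Over all genes tested, both compound libraries lay below both DMSO libraries for 28.7% with 5G6, 27.1% with 6D7 and 38.7% with 7F8. These are bulk samples, in which fewer cycling cells and less of these mRNAs per cell cannot be told apart.

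**Figure D2:**
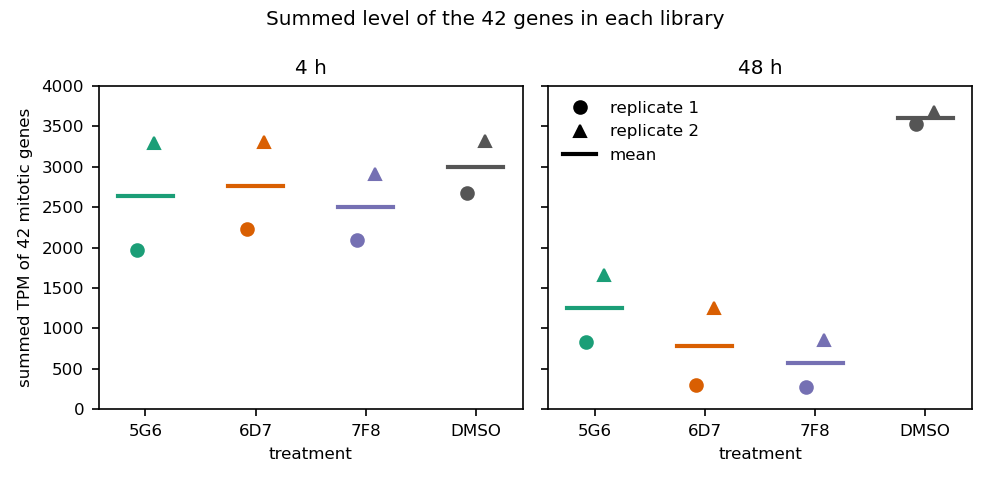
Summed TPM of the 42 genes in each library (circles, replicate 1; triangles, replicate 2; lines, means of 2), with 5G6, 6D7, 7F8 and DMSO from left to right at 4 h and at 48 h. At 48 h every compound library sits at 1666 TPM or less and both DMSO libraries at 3524 TPM or more; at 4 h the compound libraries and DMSO libraries overlap.

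The fold of single genes was tested with limma on log2(TPM + 1) over all 15958 genes, with Benjamini-Hochberg (BH) adjustment and a call at adjusted p below 0.05; on this scale the folds of low genes are understated, and genes are ranked by fold on it. With 7F8, 33 of the 42 genes fell and 0 rose, where 6.5% of all genes tested were called lower, and the median log2 fold change of the 42 was -2.74 against -0.18 over all genes. With 6D7, 24 of 42 fell and 0 rose, where 3.58% of all genes were called lower, with medians of -2.36 for the 42 genes and -0.06 for all. With 5G6, 1 of 42 was called lower and 0 higher, where 2.11% of all genes were called lower, although the median was -1.56 against -0.07 over all genes. As a share of the DMSO mean, the median gene stood at 34.8% with 5G6 (22.3% to 51.4% over the 42), 21.8% with 6D7 (11.99% to 43.4%) and 15.3% with 7F8 (7.54% to 27.6%). Scaling by median of ratios gave medians of -1.47, -2.28 and -2.54 and left every direction as it was.

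The calls rest on few libraries. The single 5G6 call was lost without any 1 of 12 libraries, and the 5G6 count was 8 without either 6D7 library of 48 h and 3 without either 7F8 library of 48 h. Without DMSO replicate 1 at 48 h no member was called with any compound, and without DMSO replicate 2 the counts were 0 with 5G6, 2 with 6D7 and 5 with 7F8. Without 6D7 replicate 1 at 48 h the 6D7 count was 0 and without its replicate 2 it was 40, without either DMSO library of 4 h it was 15, and without 7F8 replicate 1 at 48 h the 7F8 count was 0. A fit on the 48 h libraries alone called 0 in each comparison, and without the filter on low levels the counts were 0 with 5G6, 6 with 6D7 and 21 with 7F8. The p-values measure only the spread between these libraries, which the series describes as biological replicates. The counts also depend on how the replicate number is treated. A fit with the replicate number as a block called more of the genes with every compound at 48 h, most of them with 5G6 too. Its counts are given in the last section. The labels state no pairing, so that fit was kept as an alternative only. The low count with 5G6 does not show that the other genes were unchanged.

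**Figure D3:**
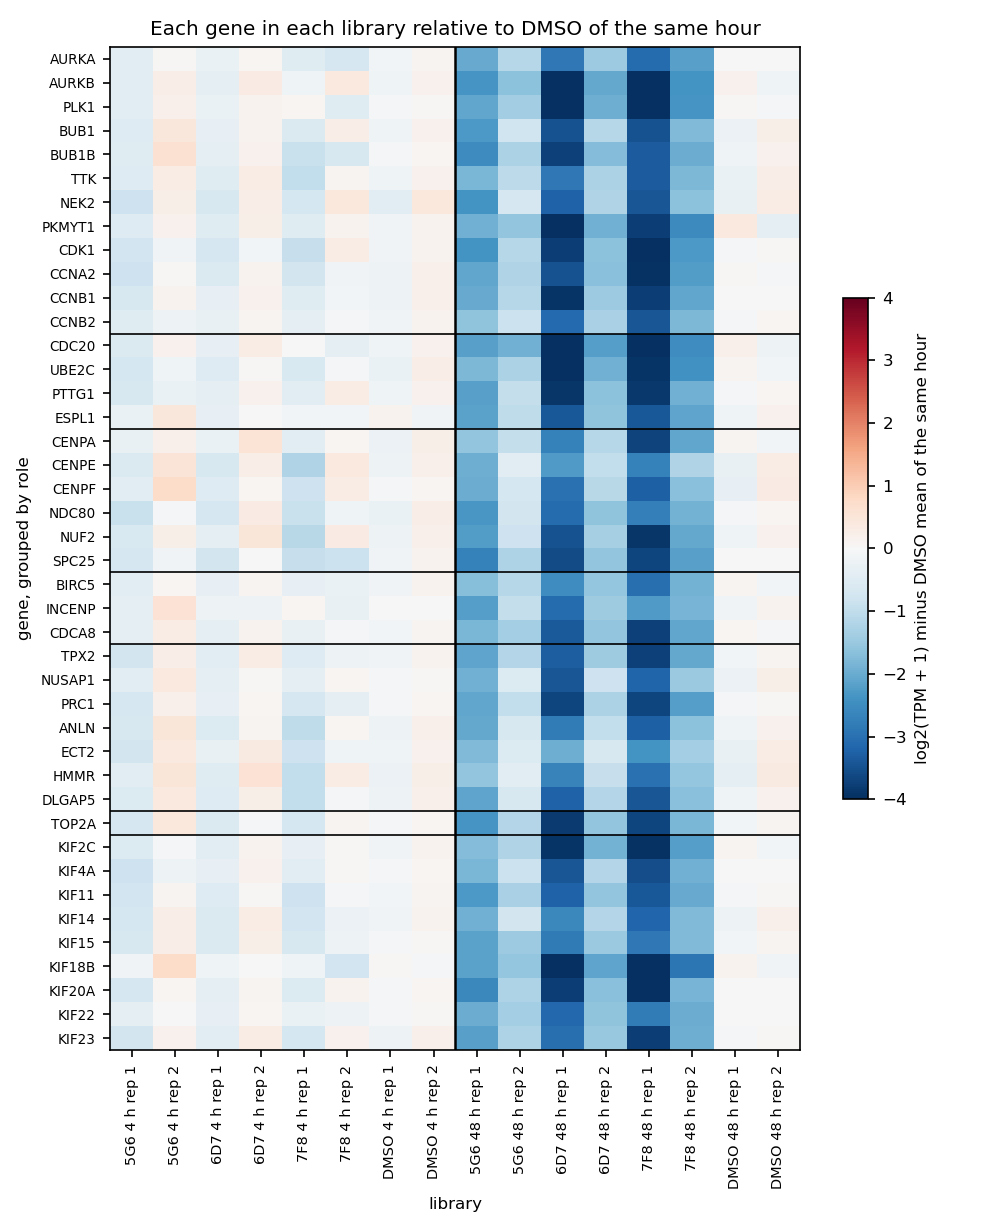
Each of the 42 genes (rows, grouped by role in the order of the text) in each of the 16 libraries (columns, 4 h left and 48 h right), as log2(TPM + 1) minus the DMSO mean of the same hour; blue is lower, red higher, and the scale ends at -4 and 4. All 6 compound libraries of 48 h are blue for all 42 genes, and replicate 1 is darker than replicate 2 for each compound.

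Among the kinases and cyclins, 10 of 12 were called lower with 7F8, 9 of 12 with 6D7 and 0 of 12 with 5G6, with median log2 fold changes of -2.78, -2.64 and -1.61. PLK1, the Polo-like kinase of centrosomes and kinetochores whose promoter is printed above, had 32.4 and 52.1 TPM with 5G6, 6.48 and 35.6 TPM with 6D7 and 6.39 and 26.5 TPM with 7F8, against 144 and 134 TPM with DMSO. All 6 compound libraries lay below both DMSO libraries, and replicate 1 was the lower one of each compound pair. Its log2 fold change was -1.73 ± 0.67 (SE, n = 2 each; limma adjusted p = 0.181) with 5G6, -3.08 ± 0.67 (adjusted p = 0.0228) with 6D7 and -3.30 ± 0.67 (adjusted p = 0.0139) with 7F8.

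AURKB, the Aurora kinase of the passenger complex, had 22.9 and 38.4 TPM with 5G6, 4.70 and 28.5 TPM with 6D7 and 4.38 and 22.3 TPM with 7F8, against 137 and 108 TPM with DMSO. AURKA, the Aurora kinase of spindle poles, had 32.0 and 59.6 TPM with 5G6, 17.5 and 48.4 TPM with 6D7 and 14.7 and 28.8 TPM with 7F8, against 134 and 132 TPM with DMSO. Neither gene overlapped between compounds and DMSO. On the log2(TPM + 1) scale AURKB had the deepest fall of the kinases with 7F8, at -3.45 ± 0.73 (adjusted p = 0.0159), although PKMYT1 stood lower as a share of the DMSO mean (10.4%, and AURKB at 10.9%). AURKB stood at -3.24 ± 0.73 (adjusted p = 0.0266) with 6D7. AURKA fell less but with a smaller error, by 2.63 ± 0.44 with 7F8 (adjusted p = 0.00642) and by 2.15 ± 0.44 with 6D7 (adjusted p = 0.0179). With 5G6 the values were -2.00 ± 0.73 for AURKB (adjusted p = 0.159) and -1.58 ± 0.44 for AURKA (adjusted p = 0.0673).

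CDK1, the kinase that starts mitosis, had 26.7 and 64.5 TPM with 5G6, 9.82 and 46.1 TPM with 6D7 and 7.19 and 28.6 TPM with 7F8, against 140.3 and 149 TPM with DMSO. CCNB1, its main cyclin, had 50.8 and 93.0 TPM with 5G6, 12.7 and 74.2 TPM with 6D7 and 14.3 and 48.1 TPM with 7F8, against 204 and 209 TPM with DMSO. Both genes were tight between the DMSO libraries and spread over several-fold between the 2 libraries of 6D7 and of 7F8. Both fell with 7F8 (CDK1 -3.23 ± 0.72, adjusted p = 0.0185; CCNB1 -2.92 ± 0.69, adjusted p = 0.0234). With 6D7 both sat close under the threshold, at -2.69 ± 0.72 for CDK1 (adjusted p = 0.0488) and -2.69 ± 0.69 for CCNB1 (adjusted p = 0.0424). With 5G6 neither was called, at -1.77 ± 0.72 for CDK1 (adjusted p = 0.202) and -1.57 ± 0.69 for CCNB1 (adjusted p = 0.239).

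Cyclin genes CCNA2 and CCNB2 were also called lower with 6D7 and 7F8, as were PKMYT1, which puts an inhibitory phosphate on CDK1, and BUB1B, the checkpoint protein BUBR1. PKMYT1 had the deepest fall of the kinases with 6D7, at -3.25 ± 0.70 (adjusted p = 0.0215). TTK, the checkpoint kinase MPS1, was called with 7F8 (-2.56 ± 0.62, adjusted p = 0.0260) and stood at -2.06 ± 0.62 with 6D7 (adjusted p = 0.0743). The 2 kinases called with no compound were BUB1, another checkpoint kinase (7F8 -2.63 ± 0.76, adjusted p = 0.0520), and NEK2, a centrosome kinase (7F8 -2.52 ± 0.80, adjusted p = 0.0728). CCNA2 overlaps EXOSC9 and PKMYT1 overlaps PAQR4 on the opposite strand, and strand use in the counting is not given in the sources used here, so their reads could be shared.

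All 4 genes of anaphase onset were called lower with 6D7 and with 7F8, and 0 with 5G6, with medians of -2.90, -3.03 and -1.56. CDC20, the activator of the APC/C and target of the spindle checkpoint, had 29.4 and 35.8 TPM with 5G6, 7.204 and 28.8 TPM with 6D7 and 6.68 and 23.9 TPM with 7F8, against 159 and 118 TPM with DMSO. Every compound library lay far below both DMSO libraries, and CDC20 had the largest fall of the 42 under 5G6 on the log2(TPM + 1) scale; as a share of the DMSO mean, KIF15 stood lower (22.3%, and CDC20 at 23.5%). Its values were -2.05 ± 0.59 with 5G6 (adjusted p = 0.0799), -3.14 ± 0.59 with 6D7 (adjusted p = 0.0140) and -3.32 ± 0.59 with 7F8 (adjusted p = 0.00878). UBE2C, the ubiquitin-conjugating enzyme of the APC/C, averaged 92.1 ± 24.0 TPM with 5G6, 41.8 ± 39.5 TPM with 6D7 and 32.8 ± 22.8 TPM with 7F8, against 266 ± 30.0 TPM with DMSO (SD, n = 2 each). PTTG1, which encodes securin, and ESPL1, which encodes the separase that securin holds in check, had log2 fold changes of -2.89 and -2.75 with 7F8. The near copies PTTG2 and PTTG3P reached at most 0.261 TPM.

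Centromere and kinetochore genes were called lower in 4 of 6 with 7F8, 2 of 6 with 6D7 and 0 of 6 with 5G6, with medians of -2.68, -2.20 and -1.43. CENPA, the histone H3 variant of centromeres, had 20.0 and 31.0 TPM with 5G6, 8.64 and 27.3 TPM with 6D7 and 3.75 and 13.7 TPM with 7F8, against 65.7 and 57.1 TPM with DMSO. Its 7F8 libraries lay below both 5G6 libraries, while 1 of its 6D7 libraries lay below them and 1 between them. CENPA fell with 7F8 (-2.90 ± 0.56, adjusted p = 0.0120), and its values were -1.92 ± 0.56 with 6D7 (adjusted p = 0.0681) and -1.26 ± 0.56 with 5G6 (adjusted p = 0.244).

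NDC80, the microtubule-binding subunit of the outer kinetochore, had 1.80 and 7.34 TPM with 5G6, 0.658 and 3.55 TPM with 6D7 and 1.10 and 2.77 TPM with 7F8, against 12.4 and 13.7 TPM with DMSO. It was low even in DMSO, rank 40 of the 42 by DMSO level at 48 h, and was called with both 6D7 (-2.35 ± 0.60, adjusted p = 0.0431) and 7F8 (-2.32 ± 0.60, adjusted p = 0.0348). With 5G6 it stood at -1.54 ± 0.60 (adjusted p = 0.189). SPC25, of the same complex, was called with 6D7 and 7F8 (-2.58 and -2.92), and NUF2, the partner of NDC80 in it, with 7F8 (-2.97 ± 0.79, adjusted p = 0.0374). SPC25 overlaps NOSTRIN on the opposite strand. The kinesin CENPE (7F8 -1.96 ± 0.72, adjusted p = 0.114) and the large kinetochore protein CENPF (7F8 -2.46 ± 0.70, adjusted p = 0.0511) were not called with any compound.

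The partners of AURKB in the passenger complex, BIRC5, INCENP and CDCA8, were all called lower with 6D7 and with 7F8 and in 0 of 3 with 5G6. BIRC5, which encodes survivin, had 45.0 and 66.8 TPM with 5G6, 25.3 and 49.9 TPM with 6D7 and 17.6 and 39.01 TPM with 7F8, against 159 and 137 TPM with DMSO. It had the smallest error of the 42 genes, with log2 fold changes of -1.41 ± 0.38 (adjusted p = 0.0623) with 5G6, -2.02 ± 0.38 (adjusted p = 0.0140) with 6D7 and -2.45 ± 0.38 (adjusted p = 0.00575) with 7F8. The scaffold INCENP stood at -2.25 with 6D7 and -2.06 with 7F8, and CDCA8, or borealin, stood at -2.47 with 6D7 and -2.89 with 7F8.

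Spindle, midzone and cytokinesis genes had 2 of 7 called lower with 7F8, 0 of 7 with 6D7 and 0 of 7 with 5G6, with medians of -2.46, -2.13 and -1.34. TPX2, which activates AURKA on spindle microtubules, had 26.2 and 51.5 TPM with 5G6, 11.1 and 43.5 TPM with 6D7 and 7.94 and 27.7 TPM with 7F8, against 109.6 and 126 TPM with DMSO. No compound library reached either DMSO library, and TPX2 was called with 7F8 (-2.89 ± 0.63, adjusted p = 0.0180) but stood just outside with 6D7 (-2.35 ± 0.63, adjusted p = 0.0505) and at -1.65 ± 0.63 with 5G6 (adjusted p = 0.179). The other call with 7F8 was PRC1, which bundles midzone microtubules (-2.94 ± 0.67, adjusted p = 0.0206).

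ECT2, the exchange factor that activates RhoA for the cleavage furrow, had 34.4 and 81.3 TPM with 5G6, 30.3 and 75.8 TPM with 6D7 and 21.98 and 45.5 TPM with 7F8, against 96.3 and 148 TPM with DMSO. Replicate 2 of 5G6 came near the lower DMSO library, and ECT2 had the smallest fold of the 42 genes with 6D7 (-1.30 ± 0.56, adjusted p = 0.200) and with 7F8 (-1.88 ± 0.56, adjusted p = 0.0572). HMMR, a spindle assembly and hyaluronan-binding protein, had the smallest with 5G6: 12.2 and 28.6 TPM with 5G6, against 29.9 and 49.5 TPM with DMSO, a log2 fold change of -0.999 ± 0.70 (adjusted p = 0.493). NUSAP1, ANLN and DLGAP5, which act on spindle microtubules, the contractile ring and chromosome-linked microtubules, were not called with any compound, with 7F8 values of -2.34, -2.46 and -2.55. ANLN overlaps KIAA0895 on the opposite strand.

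TOP2A, the topoisomerase that untangles sister chromatids, was the most abundant of the 42 genes in DMSO at 48 h. It had 51.3 and 119.8 TPM with 5G6, 18.1 and 89.2 TPM with 6D7 and 20.2 and 74.5 TPM with 7F8, against 251 and 289 TPM with DMSO. No compound library reached the lower DMSO library. It was called with 7F8 (-2.76 ± 0.73, adjusted p = 0.0365), at the edge of the threshold with 6D7 (-2.70 ± 0.73, adjusted p = 0.0499) and not with 5G6 (-1.77 ± 0.73, adjusted p = 0.209).

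All 9 genes of the kinesin group were called lower with 7F8, 5 of 9 with 6D7 and 1 of 9 with 5G6. Their medians were -2.73, -2.37 and -1.69. The kinesin CENPE, counted with the kinetochore genes, was not called with any compound. KIF18B, which shortens astral microtubules, had 10.3 and 16.3 TPM with 5G6, 1.10 and 10.7 TPM with 6D7 and 1.64 and 5.77 TPM with 7F8, against 53.6 and 44.6 TPM with DMSO. It had the largest fall of the 42 genes with 6D7 (-3.33 ± 0.66, adjusted p = 0.0164) and with 7F8 (-3.56 ± 0.66, adjusted p = 0.0102), and stood at -1.84 ± 0.66 with 5G6 (adjusted p = 0.1496). KIF20A, the midzone kinesin MKLP2, had 7.26 and 20.0 TPM with 5G6, 2.596 and 14.3 TPM with 6D7 and 2.03 and 12.7 TPM with 7F8, against 47.2 and 49.2 TPM with DMSO. It was called with 7F8 (-2.94 ± 0.74, adjusted p = 0.0298) and stood at -2.73 ± 0.74 with 6D7 (adjusted p = 0.0506) and -1.90 ± 0.74 with 5G6 (adjusted p = 0.182); it overlaps CDC23 on the opposite strand.

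KIF22, a chromokinesin that pushes chromosome arms, was the single gene called with 5G6 and was chosen for description after its values were seen. It had 23.3 and 36.7 TPM with 5G6, 10.03 and 30.4 TPM with 6D7 and 12.9 and 23.1 TPM with 7F8, against 97.1 and 93.5 TPM with DMSO. Its fold with 5G6 (-1.67 ± 0.41, adjusted p = 0.0454) was close to the median of the 42, and its error was among the smaller ones. It was called with 6D7 (-2.37 ± 0.41, adjusted p = 0.0113) and with 7F8 (-2.39 ± 0.41, adjusted p = 0.00799) as well. KIF2C, the microtubule depolymerase MCAK, KIF11, the motor that separates spindle poles, and KIF15, its partner motor, were called with 6D7 and 7F8. KIF4A, KIF14 and KIF23, motors of chromosomes and the midzone, were called with 7F8 and stood at -2.31, -1.87 and -2.26 with 6D7 without a call.

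**Figure D4:**
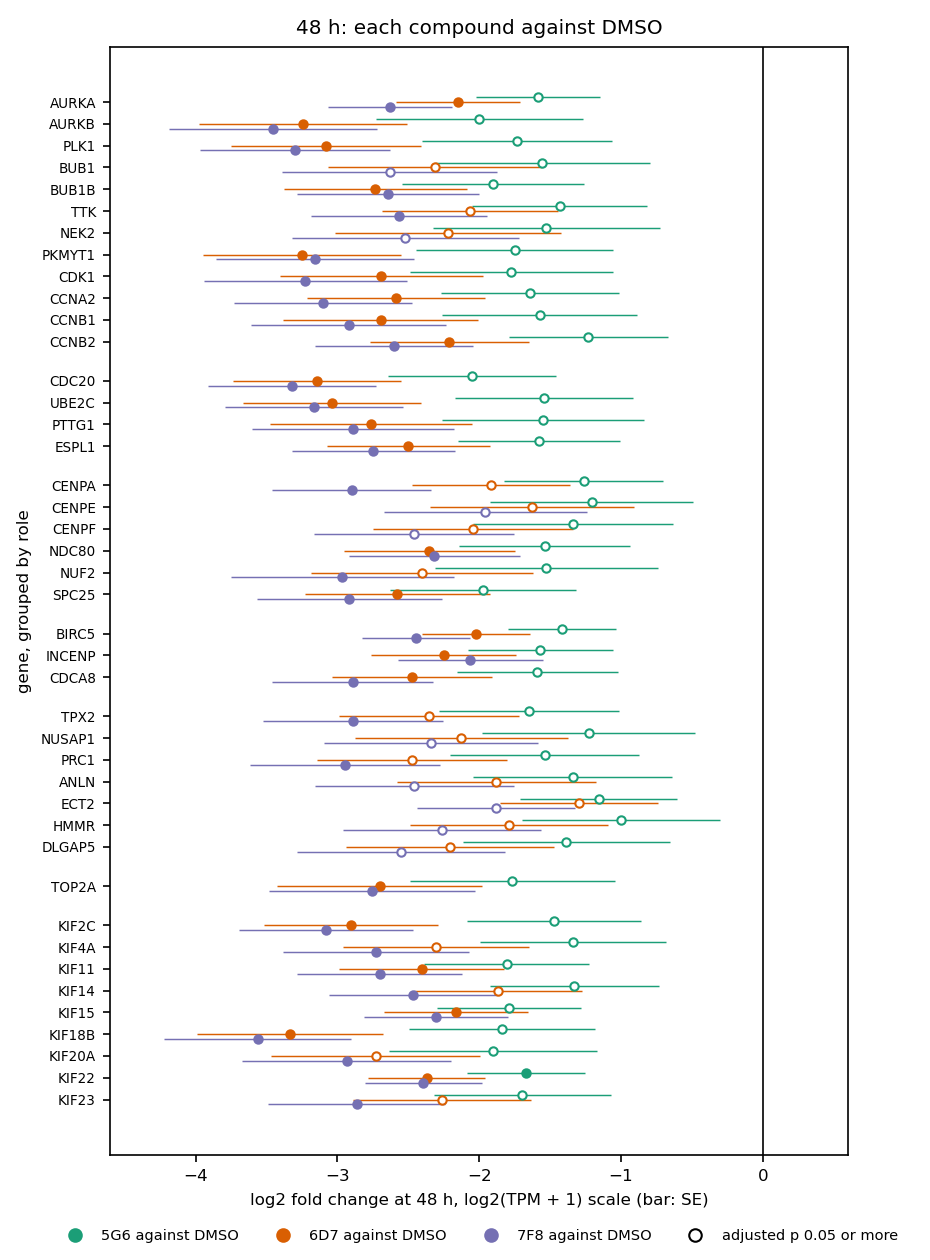
Log2 fold change against DMSO at 48 h on the log2(TPM + 1) scale for each gene, grouped by role, with bars of 1 SE; green is 5G6, orange 6D7 and purple 7F8, and filled points have limma BH-adjusted p below 0.05. All points lie below 0, and filled points number 1 for 5G6, 24 for 6D7 and 33 for 7F8.

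The replicates differed more with the compounds than with DMSO. Replicate 1 was lower than replicate 2 for all 42 genes with each compound at 48 h, by a median log2 difference of -1.05 with 5G6, -1.87 with 6D7 and -1.62 with 7F8, against -0.13 (29 of 42 genes lower) with DMSO. At 4 h replicate 1 was also lower, by a median log2 difference of -0.83 with 5G6 (42 genes lower), -0.58 with 6D7 (41) and -0.55 with 7F8 (37). With DMSO at 4 h the median was -0.29 (40 genes lower), so replicate 1 was the lower one for most of the 42 in every group. The source of this shift was not tested. The whole set moved together between the 2 libraries of a compound, so the 42 genes are not 42 separate observations. The median SE of the 42 genes in the comparison of 5G6 with DMSO was 0.65, against 0.36 for 47 DNA replication genes.

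At 4 h none of the 42 genes was called with any compound by limma, where 0% of all genes were called with 5G6, 0% with 6D7 and 0% with 7F8, and 0 of the 42 had an unadjusted p under 0.05. Summed levels were 1970 and 3298 TPM with 5G6, 2231 and 3305 TPM with 6D7 and 2096 and 2911 TPM with 7F8, against 2679 and 3319 TPM with DMSO. Replicate 1 of each compound lay below both DMSO libraries and replicate 2 between them. Both compound libraries lay below both DMSO libraries for 5 of 42 genes with 5G6 (7.9% of all genes), 1 of 42 with 6D7 (9.49% of all genes) and 10 of 42 with 7F8 (23.4% of all genes).

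Medians at 4 h were -0.19 with 5G6, -0.12 with 6D7 and -0.30 with 7F8, against 0.11, 0.01 and -0.11 over all genes. Scaling by median of ratios gave -0.33, -0.14 and -0.19. Their sign depended on 1 library with 5G6 and 6D7: without replicate 1 of the compound the medians were 0.22 with 5G6, 0.15 with 6D7 and -0.05 with 7F8. The largest departures were SPC25 with 7F8 (17.9 and 18.8 TPM, against 31.5 and 38.1 TPM with DMSO; -0.88 ± 0.65, adjusted p = 0.989), KIF4A with 5G6 (17.4 and 27.3 TPM, against 29.9 and 33.3 TPM with DMSO; -0.51 ± 0.66, adjusted p = 1) and CDK1 with 6D7 (80.3 and 117.6 TPM, against 117 and 140.4 TPM with DMSO; -0.39 ± 0.72, adjusted p = 1). The highest were KIF18B with 5G6 (30.6 and 57.3 TPM, against 35.7 and 32.8 TPM with DMSO; 0.29 ± 0.66), CENPA with 6D7 (44.8 and 78.9 TPM, against 45.2 and 63.1 TPM with DMSO; 0.15 ± 0.56) and AURKB with 7F8 (97.4 and 144 TPM, against 97.7 and 124 TPM with DMSO; 0.10 ± 0.73). The SPC25 difference was larger than its standard error and the other 5 were smaller than theirs.

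The growth of the effect with time was tested as each compound's difference from DMSO at 48 h minus that at 4 h. Medians over the 42 genes were -1.33 with 5G6, -2.23 with 6D7 and -2.44 with 7F8, and all 42 values were below 0 in each. Medians over all genes tested were -0.19, -0.07 and -0.08. No gene of the 42 was called by limma, where the share called over all genes tested was 0% for 5G6, 0% for 6D7 and 0.00627% for 7F8. Without 6D7 replicate 2 at 48 h, 10 were called for 6D7. CDC20 stood at -1.85 ± 0.84 with 5G6, -3.12 ± 0.84 with 6D7 and -3.13 ± 0.84 with 7F8 (adjusted p = 0.653, 0.403 and 0.320). The largest values were those of KIF18B with 5G6 (-2.13 ± 0.93) and 6D7 (-3.26 ± 0.93) and of AURKB with 7F8 (-3.56 ± 1.03).

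In DMSO cells 41 of the 42 genes had a higher mean at 48 h than at 4 h on the log2(TPM + 1) scale, none with a call. The 42 genes summed to 3524 and 3679 TPM at 48 h, against 2679 and 3319 TPM at 4 h, with a median log2 difference of 0.33, against 0.17 over all genes and 0.13 for the 42 after scaling by median of ratios. Both 48 h libraries lay above both 4 h libraries for 23 of the 42, where 28.6% of all genes did so. None was called by limma (0% of all genes) and 0 of the 42 had an unadjusted p under 0.05. The ends of the range were ESPL1 (21.3 TPM at 48 h, against 11.2 TPM at 4 h; 0.87) and UBE2C (266 TPM at 48 h, against 289 TPM at 4 h; -0.10).

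Between compounds, the same 42 genes were compared at the same dose and hour, in 6 comparisons, each adjusted over all genes tested. At 48 h 5G6 left higher levels than 7F8 for all 42 genes (median 1.17, against 0.10 over all genes), yet none was called by limma (0.288% of all genes were). Both 5G6 libraries lay above both 7F8 libraries for 17 of the 42, where 25.8% of all genes did so. KIF18B differed most, with 10.3 and 16.3 TPM with 5G6, against 1.64 and 5.77 TPM with 7F8 (1.72, 95% interval 0.28 to 3.16, adjusted p = 0.422). INCENP differed least (0.49, interval -0.62 to 1.61, adjusted p = 0.920), and CENPA had the smallest adjusted p (1.64, interval 0.42 to 2.86, adjusted p = 0.333).

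5G6 also left higher levels than 6D7 for all 42 genes at 48 h, with a median of 0.83, against 0.00 over all genes. None was called by limma (0.00627% of all genes were). Both 5G6 libraries lay above both 6D7 libraries for 3 of the 42, where 1582 of the 15958 genes tested did so. PKMYT1 differed most (14.4 and 18.5 TPM with 5G6, against 1.42 and 14.6 TPM with 6D7; 1.501, interval -0.02 to 3.02) and ECT2 least (0.14, interval -1.07 to 1.35). 6D7 and 7F8 were closer, with a median of 0.33, against 0.11 over all genes, and 38 of 42 above 0. None was called by limma (0.489% of all genes were) and 0 had an unadjusted p under 0.05. Both 6D7 libraries lay above both 7F8 libraries for 0 of the 42, where 4285 of the 15958 genes tested did so. CENPA was at the high end (8.64 and 27.3 TPM with 6D7, against 3.75 and 13.7 TPM with 7F8; 0.98, interval -0.23 to 2.204) and INCENP at the low end (-0.19, interval -1.30 to 0.93). For PLK1 the interval of 6D7 minus 7F8 ran from -1.25 to 1.68 on the log2 scale, wide enough to hold more than a doubling in either direction, so these data do not show that the compounds acted alike. At 4 h the medians were 0.13 for 5G6 minus 7F8, 0.18 for 6D7 minus 7F8 and -0.07 for 5G6 minus 6D7, and 0 of 42 genes were called in each (0.00627%, 0% and 0% of all genes).

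Further gene lists of the same processes also had lower medians at 48 h, to different depths. For each list here and below, the share of all genes tested that was called lower was 6.5% with 7F8, 3.58% with 6D7 and 2.11% with 5G6. Of 38 further kinetochore and checkpoint genes, 25 were called lower with 7F8, 16 with 6D7 and 4 with 5G6, with medians of -1.89, -1.48 and -1.24 and 0 called higher. DSN1, of the MIS12 complex, fell by 2.11 ± 0.29 with 7F8 (adjusted p = 0.00323), and HJURP, the chaperone of CENPA, fell by 2.86 ± 0.45 with 6D7 (adjusted p = 0.00821). Of 33 further spindle, centrosome and cytokinesis genes, 25, 14 and 1 were called lower with 7F8, 6D7 and 5G6 (medians -2.33, -1.77 and -1.31). Among these, the augmin subunit HAUS8 was called with all 3 compounds, with 5.71 and 7.26 TPM with 5G6, 4.88 and 5.88 TPM with 6D7 and 4.22 and 5.31 TPM with 7F8, against 20.9 and 14.6 TPM with DMSO. The proliferation marker MKI67 was called with 6D7 (-2.63, adjusted p = 0.0410) and 7F8 (-3.28, adjusted p = 0.0138) and stood at -1.81 with 5G6 (adjusted p = 0.160).

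Of 18 condensin and cohesin genes, 8, 5 and 0 were called lower with 7F8, 6D7 and 5G6 (medians -1.54, -1.54 and -1.18); NCAPH, the kleisin of condensin I, fell by 2.80 ± 0.50 with 7F8 (adjusted p = 0.00878). Of the 17 core APC/C genes and partners, 5, 3 and 1 were called lower (medians -0.48, -0.37 and -0.41), UBE2S, its chain-elongating enzyme, being the one with the smallest p with 7F8 (-1.52 ± 0.25, adjusted p = 0.00600). The medians of this list lay nearer to those of all genes (-0.18, -0.06 and -0.07) than to those of CDC20 and UBE2C.

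Of 47 DNA replication genes, 44 were called lower with 7F8, 42 with 6D7 and 34 with 5G6, with medians of -2.10, -2.09 and -1.66. Their median with 5G6 was close to that of the 42 mitotic genes (-1.56), and their median SE was the smaller one, as given above. MCM6, of the replicative helicase, had 13.5 and 18.8 TPM with 5G6, against 84.4 and 74.2 TPM with DMSO, a log2 fold change of -2.24 ± 0.31 (adjusted p = 0.00708). Its groups did not overlap. CDK regulators split: of 13 tested, 6, 5 and 1 were called lower with 7F8, 6D7 and 5G6, CDC25A, the phosphatase that activates CDKs, among them with all 3 (-2.22, -2.01 and -1.78). CDKN1A, the CDK inhibitor p21, had 346 and 276 TPM with 5G6, 806 and 309 TPM with 6D7 and 289 and 226 TPM with 7F8, against 158 and 168 TPM with DMSO. It rose with 6D7 (1.61 ± 0.38, adjusted p = 0.0328), where 1 library was far above the other, and was not called with 5G6 (0.92 ± 0.38, adjusted p = 0.215) or 7F8 (0.65 ± 0.38, adjusted p = 0.330), although all 6 compound libraries were above both DMSO libraries.

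Of 19 cell cycle transcription factors, 9, 8 and 4 were called lower with 7F8, 6D7 and 5G6, with medians of -0.63, -0.79 and -0.57. Some factors known to act at the promoters of mitotic genes were among those called. LIN37, a subunit of the MuvB complex, was the highest of the list, at 0.13, 0.77 and 0.31 with 7F8, 6D7 and 5G6, without a call. Of the 19 factors, 17, 16 and 17 lay below 0. FOXM1 had 21.1 and 38.3 TPM with 5G6, 8.80 and 28.0 TPM with 6D7 and 5.20 and 16.6 TPM with 7F8, against 72.4 and 68.9 TPM with DMSO, and was called with 6D7 (-2.09 ± 0.55, adjusted p = 0.0476) and 7F8 (-2.78 ± 0.55, adjusted p = 0.0128). MYBL2, which encodes B-MYB, was called with 6D7 (-2.62 ± 0.55, adjusted p = 0.0198) and 7F8 (-3.36 ± 0.55, adjusted p = 0.00603), and E2F1 with 6D7 (-2.43 ± 0.48, adjusted p = 0.0166) and 7F8 (-2.64 ± 0.48, adjusted p = 0.00974). With 5G6 the values were -1.28 for FOXM1 (adjusted p = 0.229), -1.80 for MYBL2 (adjusted p = 0.0936) and -1.76 for E2F1 (adjusted p = 0.0671). E2F8, a repressor made in S phase, was called with all 3 (-2.82, -2.39 and -2.00 with 7F8, 6D7 and 5G6).

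**Figure D5:**
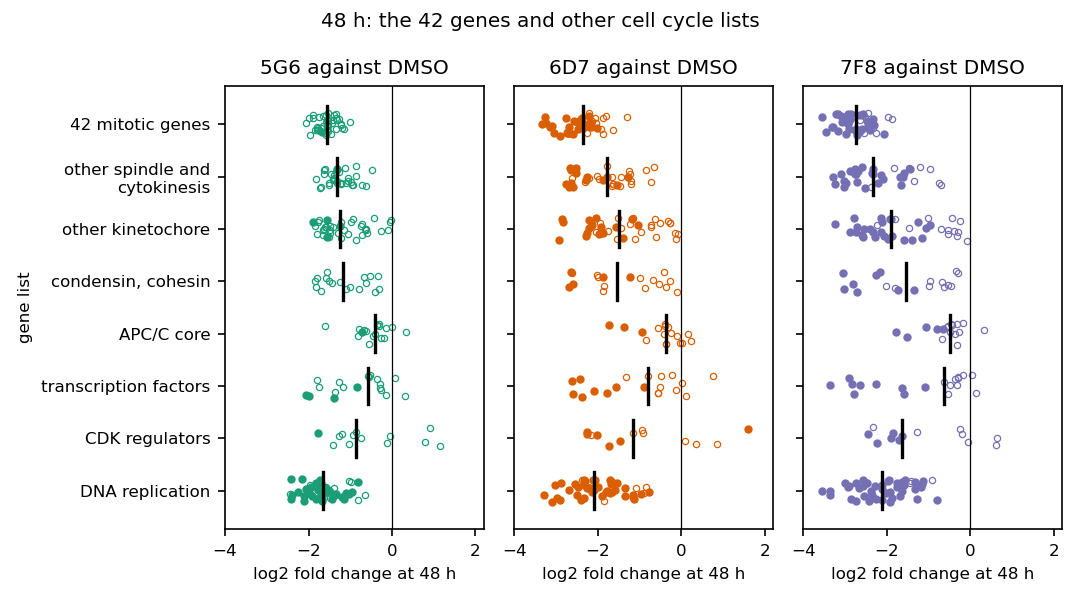
Log2 fold change against DMSO at 48 h for each gene of the 42 (top row) and of 7 other lists, in a panel per compound; filled points have limma BH-adjusted p below 0.05 and black bars are medians. The 42 genes and the DNA replication genes all lie below 0. The APC/C core is less shifted, at medians of -0.48 to -0.37, with 16, 14 and 15 of its 17 genes below 0 with 7F8, 6D7 and 5G6.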

How the data were processed

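RNA of A549 cells was sequenced by the authors, who deposited 1 table per library with TPM, FPKM and coverage for each gene. Per the submitters' processing notes, STAR 2.6.1a, featureCounts 1.6.3 and StringTie 2.0 were used with build GRCh38; the role of each tool, the annotation and the use of strand are not given in the sources used here. The deposited TPM was summed over rows of 1 gene name, mitochondrial genes were dropped and the rest was rescaled to the full TPM total. The deposited FPKM served as an alternative, and the deposited coverage over FPKM gave the aligned bases of each library. No counts were used, so no counting interval can be given.

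The groups came from the labels, with 2 libraries each; no 2 libraries held the same values. limma 3.58.1 in R 4.3.3 was fitted to log2(TPM + 1) with 8 group means, a variance trend and all 16 libraries, over genes with at least 1 TPM in at least 2 libraries, and p-values were BH-adjusted within each comparison over 15958 genes (8 residual degrees of freedom). The procedure was tested on simulated data with noise drawn separately for each gene and library. Those data held no shift shared by many genes of a library, so the test does not cover such a shift. Intervals are 95%. Members and the other gene lists were chosen with earlier results of these data known. Named with values in each library are AURKA, AURKB, PLK1, CCNB1, CDK1, CDC20, CENPA, NDC80, BIRC5, TPX2, TOP2A and KIF20A, and, per comparison, the members with the largest and smallest change; of other lists, FOXM1, MYBL2, CDKN1A, E2F1, MKI67 and, per list, the called gene with the smallest p. Alternatives changed the scaling, pseudocount, unit, filter, variance trend, libraries fitted and replicate block. The replicate numbers were checked for pairing and were not treated as pairs.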

Additional observations from a re-analysis of the deposited data

How the results depend on the processing

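Every median over the 42 genes at 48 h kept its direction under all alternatives: -2.08 to -1.14 with 5G6, -3.38 to -1.50 with 6D7 and -3.52 to -1.97 with 7F8. Each moved by less than the spread between replicates. Leaving out 1 of 2 libraries could hardly move a median by more than that spread, so this comparison says little for those alternatives. Counts of called genes changed with the processing. The count with 5G6 (1 in the report) was 0 with TPM as deposited, with a pseudocount of 0.1, without the filter, without the variance trend and for libraries of 1 time point alone, 3 with FPKM, and 0 to 8 when 1 library was left out. The count with 6D7 (24) was 6 without the filter, 0 for libraries of 1 time point alone and 0 to 40 when 1 library was left out. The count with 7F8 (33) was 21 without the filter, 0 for libraries of 1 time point alone and 0 to 41 when 1 library was left out. For the 6D7 effect at 48 h against 4 h (0) the range was 0 to 10. Without the filter more genes were tested, and a single time point left fewer libraries. The cause of the changes in the counts was not tested. With the replicate block the counts at 48 h were 32 with 5G6, 42 with 6D7 and 42 with 7F8, and 0 in every other comparison. The numbers carry no stated pairing, and same-numbered libraries deviated together with correlations of 0.054 to 0.588 over 28 pairs of groups, 25 of them above 0.1, so the block is a hint from the data. Over 63 tests of single genes under these alternatives, 1223 values kept their side of the threshold, 231 lost and 58 gained a call, and 0 reversed. Depth is known as aligned bases alone, so no counting error is given.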
